A study of Mus musculus with 20 samples.

Results

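The gene set described here comprised 9 genes of mouse chromosome 5 whose RNA level in the POA differed between dnFGFR and control males, out of 25239 genes in the deposited count table. They lie in 2 blocks far apart on the chromosome. The first block held Abcb8, Asic3, Prkag2os1 and Galnt11, and the second held Col26a1, 4933404O12Rik, Zkscan1, Zfp157 and A430033K04Rik. The members were selected on their count differences between dnFGFR and control mice in these same libraries (edgeR fold changes and adjusted p). Their genotype values and calls are therefore given as a description. The tests of the members are those of housing and of its interaction with genotype, run on the same mice that chose the members.

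RNA was sequenced from the POA (preoptic area of the hypothalamus) of 20 male mice at PND320, and 4 groups of 5 mice were compared. Control SS and control OS mice lacked the transgene and had been kept since PND20 with a same-sex or an opposite-sex partner. dnFGFR SS and dnFGFR OS mice were housed in the same ways and carried a truncated, dominant negative FGF receptor 1 under a rat GnRH promoter, which is active in GnRH neurons, a small cell population of the POA. The dnFGFR line was kept homozygous, whereas controls of matching background descended from crosses between heterozygous dnFGFR siblings, and OS mice could breed. Between 32353578 and 39871353 reads per mouse were counted on genes.

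Genes that lie close together on a chromosome tend to be inherited together, because recombination between them is rare, so mice that share a stretch of chromosome share the variants of every gene in it. In mouse lines derived from crosses, RNA levels of neighbouring genes can therefore differ in steps that follow the stretch a mouse carries. No genotypes of single mice at chromosome 5 were used here, and inheritance itself was not tested.

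Positions are given in RefSeq coordinates of GRCm38. In the first block, Abcb8 (chr5:24393681-24412759) codes for an ABC transporter of mitochondria, and Asic3 (chr5:24413451-24417840), a proton-gated sodium channel of sensory neurons, begins 691 bases after it. Prkag2os1 (chr5:24902569-24906849) is a lncRNA on the strand opposite to Prkag2, a regulatory subunit of the energy sensor AMPK. Galnt11 (chr5:25222872-25265918) codes for a GalNAc transferase that starts O-linked glycan chains on proteins. The block spans 0.872 Mb.

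The second block begins 111 Mb further on and spans 1.91 Mb. Its first gene, Col26a1 (chr5:136741759-136883376), codes for a collagen with an EMI domain, and 4933404O12Rik (chr5:136919146-136937109) is a lncRNA. Zkscan1 (chr5:138085050-138107822) and Zfp157 (chr5:138441458-138460900) code for zinc finger proteins. A430033K04Rik (chr5:138622859-138648917) is protein coding and has no common name.

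Promoter sequence from RefSeq (GRCm38.p6) was found for 7 of the 9 members, with none for Abcb8 and Col26a1. These windows are 250 bases long and end just before the start site that the RefSeq promoter table uses, which for Zfp157 and Zkscan1 lies 18 and 34 bases after the gene start given above. Galnt11 has a second window, whose start site lies 23501 bases after its gene start. The windows of Zfp157 and A430033K04Rik are shown because they held the longest run of identical bases between any 2 members. Only the first window of each member was compared for this. The pair were also in each other's lists of genes most alike over the 20 mice, described further on. Both are on the plus strand, at chr5:138441226-138441475 and chr5:138622609-138622858, and the capitals mark the shared 15 bases.
Zfp157: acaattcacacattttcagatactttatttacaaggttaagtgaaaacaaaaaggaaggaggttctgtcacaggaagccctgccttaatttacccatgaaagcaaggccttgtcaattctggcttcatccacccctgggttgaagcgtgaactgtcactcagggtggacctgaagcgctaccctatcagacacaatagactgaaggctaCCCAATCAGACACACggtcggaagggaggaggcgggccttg
A430033K04Rik: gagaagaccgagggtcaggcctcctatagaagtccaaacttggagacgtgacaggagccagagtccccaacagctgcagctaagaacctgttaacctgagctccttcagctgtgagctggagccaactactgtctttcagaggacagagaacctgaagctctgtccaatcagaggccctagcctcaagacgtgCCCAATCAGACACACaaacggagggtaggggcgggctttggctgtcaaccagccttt
The run CCCAATCAGACACAC starts 41 bases before the table's start site of Zfp157, which is 23 bases before its gene start, and 57 bases before the start of A430033K04Rik. Searched on both strands, it occurred in 2 of 32851 promoter windows of the same length (0.00609%), and these were the 2 shown. Because the run was found by comparing these 2 windows, its presence in both was fixed in advance. Nothing is read from that count. The run contains a CCAAT box (letters CCAAT), which 33.8% of all windows held and, among the member windows, only the 2 shown. The GC box GGGCGG was present in windows of Galnt11 and A430033K04Rik and in 32.7% of all windows. The TATA box TATAAA was in none of the 8 member windows and in 12.4% of all windows. These matches are descriptions of letters and not of bound sites.

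Mean levels over 20 mice, in CPM (counts scaled to the size of the library) per kb of exon, ran in the order Abcb8 (15.9), Zkscan1 (8.74), Galnt11 (6.48), A430033K04Rik (3.87), 4933404O12Rik (3.76), Zfp157 (3.33), Prkag2os1 (0.422), Col26a1 (0.385) and Asic3 (0.209). Asic3 and Prkag2os1 were near the lower end of detection, with 1 to 13 counts in each dnFGFR mouse. In bulk tissue, fewer cells of a type and less RNA per cell cannot be told apart.

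Abcb8, Galnt11, 4933404O12Rik and Zkscan1 had the higher mean in dnFGFR mice, and Asic3, Prkag2os1, Col26a1, Zfp157 and A430033K04Rik the lower, in both housings. With edgeR's quasi-likelihood test and a Benjamini-Hochberg adjusted p under 0.1, 8 of the 9 members passed in SS mice, where 0.2% of 16992 tested genes did. Of these members 4 were higher and 4 lower in dnFGFR mice (0.0706% and 0.129% of genes). In OS mice 2 of the 9 passed, beside 0.0531% of 16941 tested genes, and 0 of these were higher and 2 lower (0.0236% and 0.0295% of genes). Since this contrast chose the members, nothing is read from these counts. Just inside the threshold in SS mice lay Prkag2os1 (log2 fold change -2.30, adjusted p = 0.0692), and just outside it Asic3 (-2.28, adjusted p = 0.144), both from edgeR. In OS mice Prkag2os1 was again the last inside (-2.61, adjusted p = 0.0677), and 4933404O12Rik the first outside (0.54, adjusted p = 0.152), in the same fits.

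**Figure D1:**
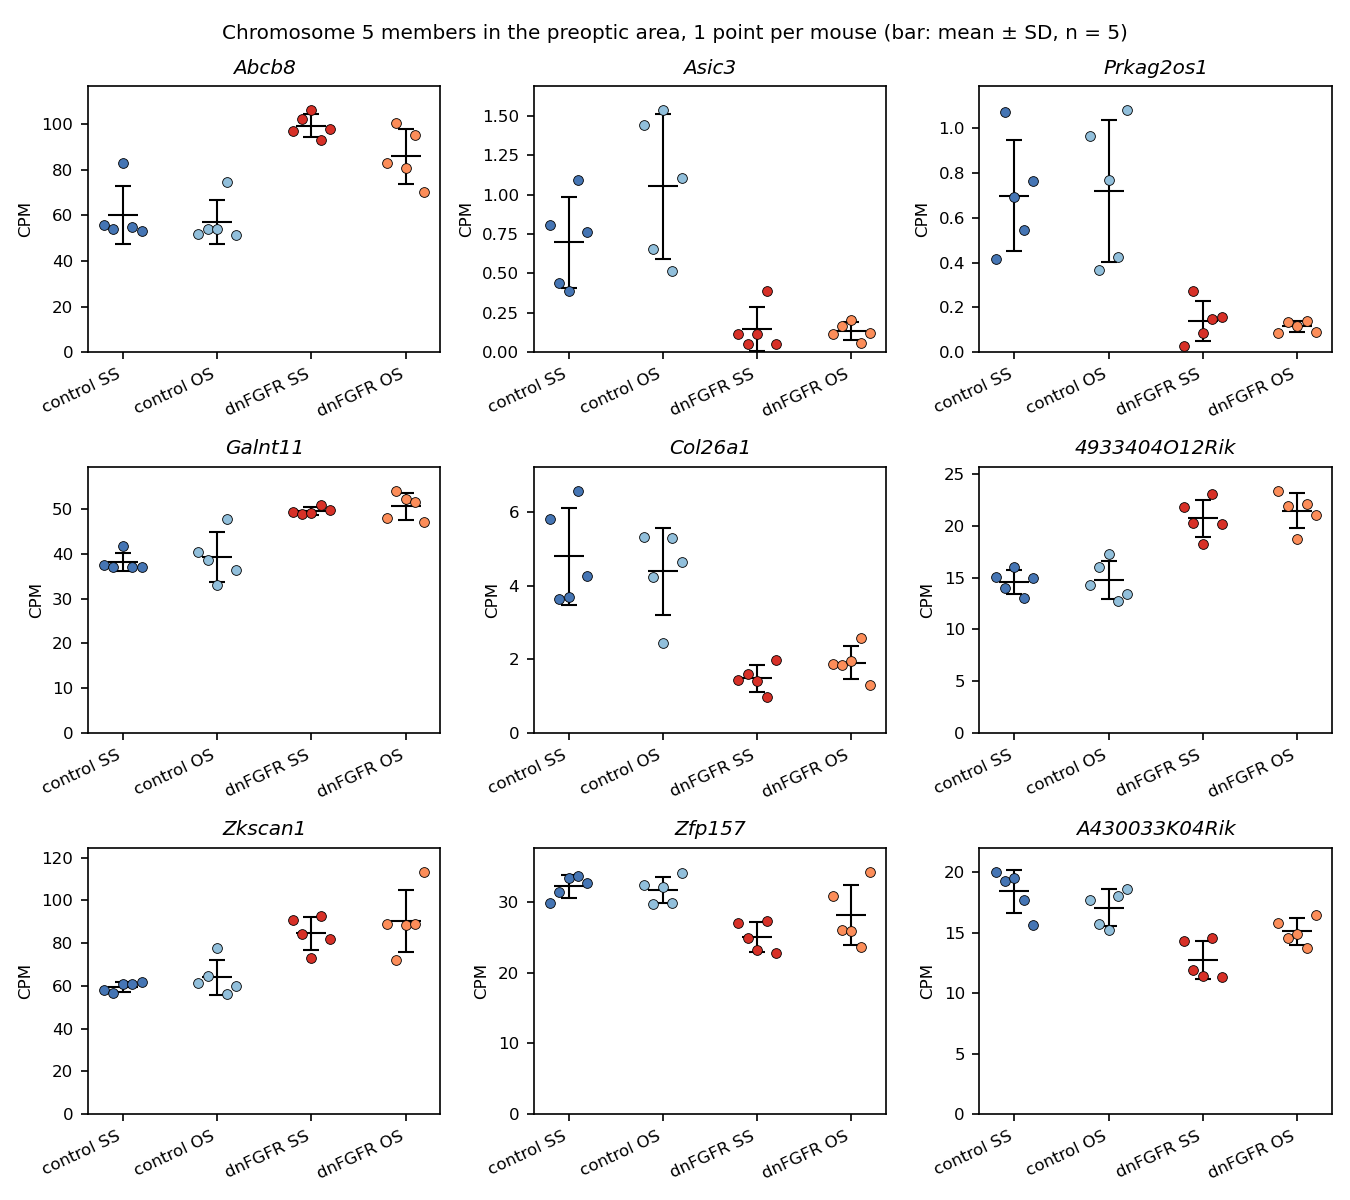
CPM (vertical axes, from 0) of the 9 members in each of the 4 groups (horizontal axes), with 1 point per mouse and a bar for the mean ± SD (n = 5). Asic3, Prkag2os1 and 4933404O12Rik had no overlap between the 10 control and the 10 dnFGFR mice, whereas Abcb8 had 2 control mice at 83.0 and 74.4 CPM, above the dnFGFR minimum of 70.3 CPM.

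In the first block, Abcb8 was at 55.7, 54.0, 83.0, 54.9 and 53.2 CPM in control SS mice 1 to 5, and at 51.8, 54.2, 53.8, 74.4 and 51.4 CPM in control OS mice 1 to 5. It was at 96.9, 102, 106, 92.9 and 98.0 CPM in dnFGFR SS mice and at 82.9, 100.4, 80.8, 95.1 and 70.3 CPM in dnFGFR OS mice. The other 8 controls lay within a narrow band from 51.4 to 55.7 CPM, below control SS mouse 3 and control OS mouse 4. The mean was 58.6 ± 10.8 CPM in controls and 92.6 ± 11.2 CPM in dnFGFR mice (SD, n = 10 each), and the log2 fold change was 0.72 (SE 0.105) in SS and 0.59 (SE 0.118) in OS mice.

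Galnt11, at the other end of the block, was at 37.5, 37.1, 41.8, 37.1 and 37.1 CPM in control SS mice and at 40.5, 38.5, 33.0, 47.9 and 36.4 CPM in control OS mice. dnFGFR SS mice were at 49.3, 48.8, 49.2, 51.0 and 49.8 CPM, and dnFGFR OS mice at 48.0, 54.0, 52.3, 51.6 and 47.1 CPM. The highest controls were the same 2 mice as for Abcb8, and only control OS mouse 4 reached into the dnFGFR range. The log2 fold change was 0.38 (SE 0.0487) in SS and 0.36 (SE 0.0945) in OS mice.

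Asic3 and Prkag2os1 were read from few counts. Asic3 had 27, 16, 14, 44 and 30 counts in control SS mice, 48, 23, 54, 17 and 39 in control OS mice, 4, 2, 4, 13 and 2 in dnFGFR SS mice, and 4, 6, 7, 2 and 4 in dnFGFR OS mice. Its lowest control, control SS mouse 3 at 0.389 CPM, was next to its highest dnFGFR mouse, dnFGFR SS mouse 4 at 0.388 CPM. Means were 0.875 ± 0.406 CPM in controls and 0.139 ± 0.1003 CPM in dnFGFR mice (SD, n = 10 each), 6.30-fold lower in the latter, with a log2 fold change of -2.28 (SE 0.501) in SS and -2.95 (SE 0.44) in OS mice.

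Prkag2os1 had 14, 39, 25, 22 and 30 counts in control SS mice and 32, 13, 27, 14 and 38 in control OS mice. It had 1, 10, 3, 5 and 6 counts in dnFGFR SS mice and 3, 5, 4, 5 and 3 in dnFGFR OS mice. The genotypes did not overlap, and the mean was 5.61-fold lower in dnFGFR mice, with a log2 fold change of -2.30 (SE 0.437) in SS and -2.61 (SE 0.427) in OS mice. Prkag2os1 lies within Prkag2 and shares 142 exon bases with it on the other strand. Abcb8 and Asic3 overlap the span of Cdk5, a neuronal kinase on the opposite strand, over 5163 and 4390 bases, with 0 shared exon bases. Spans are from RefSeq, but shared exon bases are from the GENCODE M21 annotation. Reads were counted on RefSeq genes, whose exons were not compared. Whether reads of Cdk5 entered the counts of Abcb8 or Asic3 was therefore not tested. The strand setting of the counting is not given in the sources used here, so reads from the exon bases that Prkag2os1 and Prkag2 share cannot be told apart. Prkag2 itself had a log2 fold change of 0.06 (SE 0.0695) in SS and 0.23 (SE 0.0768) in OS mice, and Cdk5 of -0.08 (SE 0.0556) and -0.32 (SE 0.129).

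In the second block, Col26a1 was at 5.83, 3.64, 3.70, 6.57 and 4.28 CPM in control SS mice and at 5.33, 4.23, 2.45, 5.30 and 4.64 CPM in control OS mice. dnFGFR SS mice were at 1.45, 1.60, 1.42, 0.984 and 1.98 CPM, and dnFGFR OS mice at 1.87, 1.86, 1.95, 2.58 and 1.31 CPM. A single control, control OS mouse 3, lay within the dnFGFR range. The mean was 2.70-fold lower in dnFGFR mice, with a log2 fold change of -1.69 (SE 0.217) in SS and -1.20 (SE 0.234) in OS mice.

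The lncRNA 4933404O12Rik was at 15.1, 13.99, 16.0, 12.99 and 14.9 CPM in control SS mice and at 14.3, 16.0, 17.2, 12.8 and 13.4 CPM in control OS mice. It was at 21.8, 20.3, 18.3, 23.0 and 20.2 CPM in dnFGFR SS mice and at 23.3, 21.9, 18.8, 22.1 and 21.1 CPM in dnFGFR OS mice. No dnFGFR mouse reached the control range, and control OS mouse 3 was the highest control. The log2 fold change was 0.50 (SE 0.0803) in SS and 0.54 (SE 0.101) in OS mice.

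Zkscan1 was at 57.9, 56.5, 60.8, 61.1 and 61.7 CPM in control SS mice and at 61.3, 64.7, 77.8, 56.4 and 59.8 CPM in control OS mice. dnFGFR SS mice were at 90.7, 84.2, 73.0, 92.9 and 81.8 CPM, and dnFGFR OS mice at 88.8, 72.2, 88.4, 89.0 and 113 CPM. Control OS mouse 3 again stood highest among the controls and was above dnFGFR SS mouse 3 and dnFGFR OS mouse 2. The log2 fold change was 0.50 (SE 0.062) in SS and 0.50 (SE 0.118) in OS mice, and 0.40 in OS mice without dnFGFR OS mouse 5.

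Zfp157 was at 29.8, 31.4, 33.4, 33.7 and 32.8 CPM in control SS mice and at 32.5, 29.8, 32.2, 29.9 and 34.1 CPM in control OS mice. It was at 27.1, 24.9, 23.2, 27.3 and 22.8 CPM in dnFGFR SS mice and at 30.8, 26.1, 25.9, 23.7 and 34.2 CPM in dnFGFR OS mice. dnFGFR OS mice 1 and 5 lay within and above the control range, and the other 8 dnFGFR mice lay below it. The log2 fold change was -0.37 (SE 0.0655) in SS and -0.17 (SE 0.104) in OS mice.

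A430033K04Rik was at 20.01, 19.3, 19.5, 17.7 and 15.6 CPM in control SS mice and at 17.7, 15.8, 15.2, 18.1 and 18.7 CPM in control OS mice. It was at 14.3, 11.9, 11.4, 14.5 and 11.3 CPM in dnFGFR SS mice and at 15.8, 14.6, 14.9, 13.7 and 16.5 CPM in dnFGFR OS mice. Here too dnFGFR OS mice 1 and 5 were the dnFGFR mice nearest to the controls. The log2 fold change was -0.54 (SE 0.0961) in SS and -0.18 (SE 0.0924) in OS mice.

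dnFGFR OS mouse 5 stood apart in the series, with reads on 18416 genes against 19101 to 19659 genes in each of the other 19 mice. The next lowest were control OS mouse 3 (19101 genes) and dnFGFR OS mouse 1 (19111 genes). These 3 mice are those singled out below for second-block members, and the part of the detected gene number in their values was not tested. Without dnFGFR OS mouse 5 the log2 fold changes in OS mice were 0.65 for Abcb8, 0.39 for Galnt11, -1.09 for Col26a1, 0.54 for 4933404O12Rik, -0.25 for Zfp157 and -0.21 for A430033K04Rik, so Zfp157 was the member with the largest relative shift, from -0.17. The 9 members kept their direction without this mouse, and 2 of 9 again passed the threshold in OS mice, where Abcb8 (adjusted p = 0.0993, edgeR) took the place of Prkag2os1 (adjusted p = 0.127, edgeR).

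To set single mice side by side, the log2 CPM of each member was placed on a scale on which 0 is the control mean and 1 the dnFGFR mean. A mouse nearer to the mean of the other genotype lies across the midpoint of 0.5. In SS mice the genotypes did not overlap for 9 of 9 members (1.55% of 17445 genes had no overlap), and in OS mice for 3 of 9 (1.54%). Over all 20 mice the genotypes did not overlap for 3 members, Asic3, Prkag2os1 and 4933404O12Rik (0.086%).

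**Figure D2:**
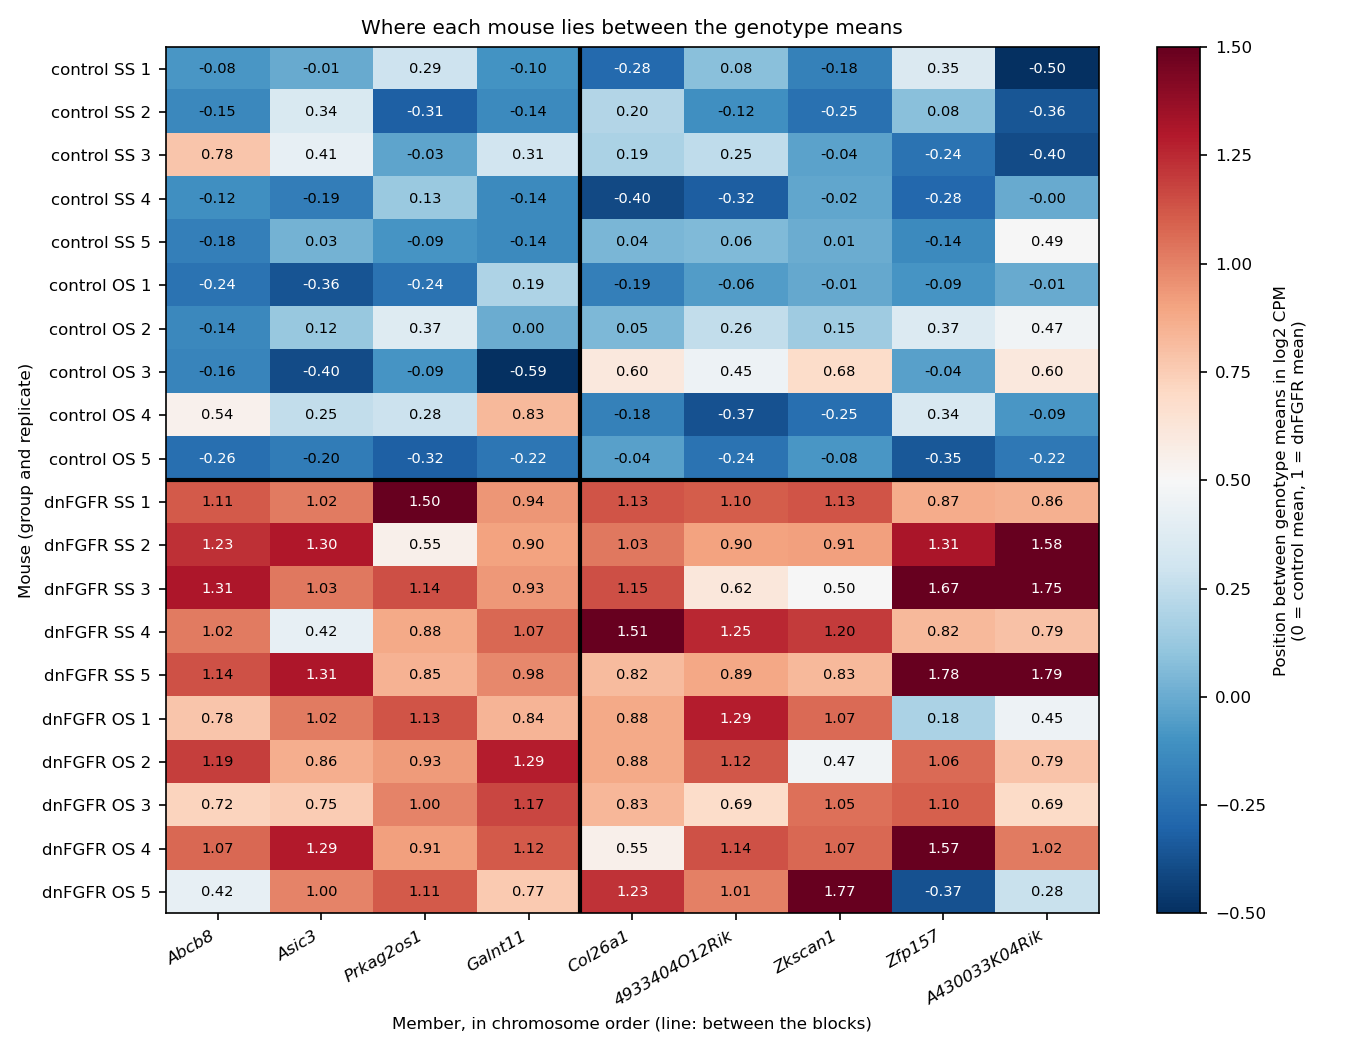
Position of each mouse (rows) for each member (columns, in chromosome order) between the genotype means in log2 CPM, where 0 (blue) is the control mean and 1 (red) the dnFGFR mean; lines separate the genotypes and the blocks. Control OS mouse 4 is at 0.54 for Abcb8 and 0.83 for Galnt11 but below 0 for 4 of the 5 second-block members, and control OS mouse 3 is at 0.60, 0.45, 0.68 and 0.60 for 4 second-block members but below 0 in the first block.

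Control SS mouse 3 was at 0.78 for Abcb8, 0.41 for Asic3, -0.03 for Prkag2os1 and 0.31 for Galnt11. Control OS mouse 4 was at 0.54, 0.25, 0.28 and 0.83 for the same genes. Among the 10 controls, these mice ranked 1 and 2 toward dnFGFR levels for Abcb8 and 2 and 1 for Galnt11. For Asic3 they ranked 1 and 3, and for Prkag2os1 5 and 3. In the second block control OS mouse 4 averaged -0.11, so its shift did not extend there.

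Control OS mouse 3 had the opposite layout. In the second block it was at 0.60 for Col26a1, 0.45 for 4933404O12Rik, 0.68 for Zkscan1, -0.04 for Zfp157 and 0.60 for A430033K04Rik, and it ranked 1 of 10 controls for each of these except Zfp157, for which it ranked 5. Its average in the first block was -0.31, on the far side of the control mean.

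Among dnFGFR mice, OS mouse 1 was at 0.18 for Zfp157 and 0.45 for A430033K04Rik, and OS mouse 5 at -0.37 and 0.28. These mice ranked 2 and 1 of 10 dnFGFR mice toward control levels for both genes, which are next to each other in the set. For Col26a1 and 4933404O12Rik, further toward the start of the block, the same mice were at 0.88 and 1.29 and at 1.23 and 1.01. dnFGFR OS mouse 5 was also across the midpoint for Abcb8, at 0.42. The other dnFGFR mice across the midpoint were SS mouse 4 for Asic3 (0.42, from 13 counts) and SS mouse 3 and OS mouse 2 for Zkscan1 (0.499 and 0.47).

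By member, 3 of 20 mice were across the midpoint for each of Abcb8, Zkscan1 and A430033K04Rik, 2 for Zfp157, 1 for each of Asic3, Galnt11 and Col26a1, and 0 for Prkag2os1 and 4933404O12Rik. No mouse was across it for every member of a block.

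For each member, the 3 genes with the most similar course over the 20 mice were found among 17444 others, by the root mean square difference of z-scored log2 CPM. The lists held 23 different genes, of which 9 were on chromosome 5 and 5 of these were members; 6.08% of the 17445 genes compared lie on chromosome 5. Because members differ by genotype, genes that differ by genotype rank high by this measure. Members were also chosen for lying on chromosome 5, so their presence in these lists was partly fixed in advance. Nothing is read from the share on chromosome 5. Abcb8 and Galnt11 listed each other, with a difference of 0.436, and both listed AI506816 and Gm9057. The closest to both was AI506816 (0.362 from Abcb8 and 0.353 from Galnt11), a lncRNA at chr5:23692261-23712667 that ends 0.681 Mb before Abcb8.

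AI506816 was at 0.299, 0.579, 4.53, 0.372 and 0.356 CPM in control SS mice and at 0.120, 0.227, 0.0854, 4.39 and 0.171 CPM in control OS mice. It was at 7.31, 7.20, 8.27, 8.80 and 7.70 CPM in dnFGFR SS mice and at 8.22, 8.98, 8.47, 8.82 and 7.67 CPM in dnFGFR OS mice. Control SS mouse 3 and control OS mouse 4, with 163 and 144 counts, thus lay between the other 8 controls, which had 3 to 21 counts, and the 10 dnFGFR mice, which had 251 to 329. They are the mice with the highest Abcb8 among controls. AI506816 had a log2 fold change of 2.68 (SE 0.565) in SS and 3.09 (SE 0.785) in OS mice and passed the threshold in neither.

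The third gene listed for Abcb8 and Galnt11, the transcribed pseudogene Gm9057, ends 1.83 Mb before Abcb8. Its 2 highest controls were the same mice, at 0.862 and 0.914 CPM, with 0.280 to 0.661 CPM in the other 8 controls and 0.809 to 2.05 CPM in dnFGFR mice. Since AI506816 and Gm9057 were picked for their likeness to Abcb8 and Galnt11 over these mice, the shared high controls are part of how they were picked. Asic3 and Prkag2os1, which lie between Abcb8 and Galnt11, ranked the same mice 1 and 3 and 5 and 3.

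**Figure D3:**
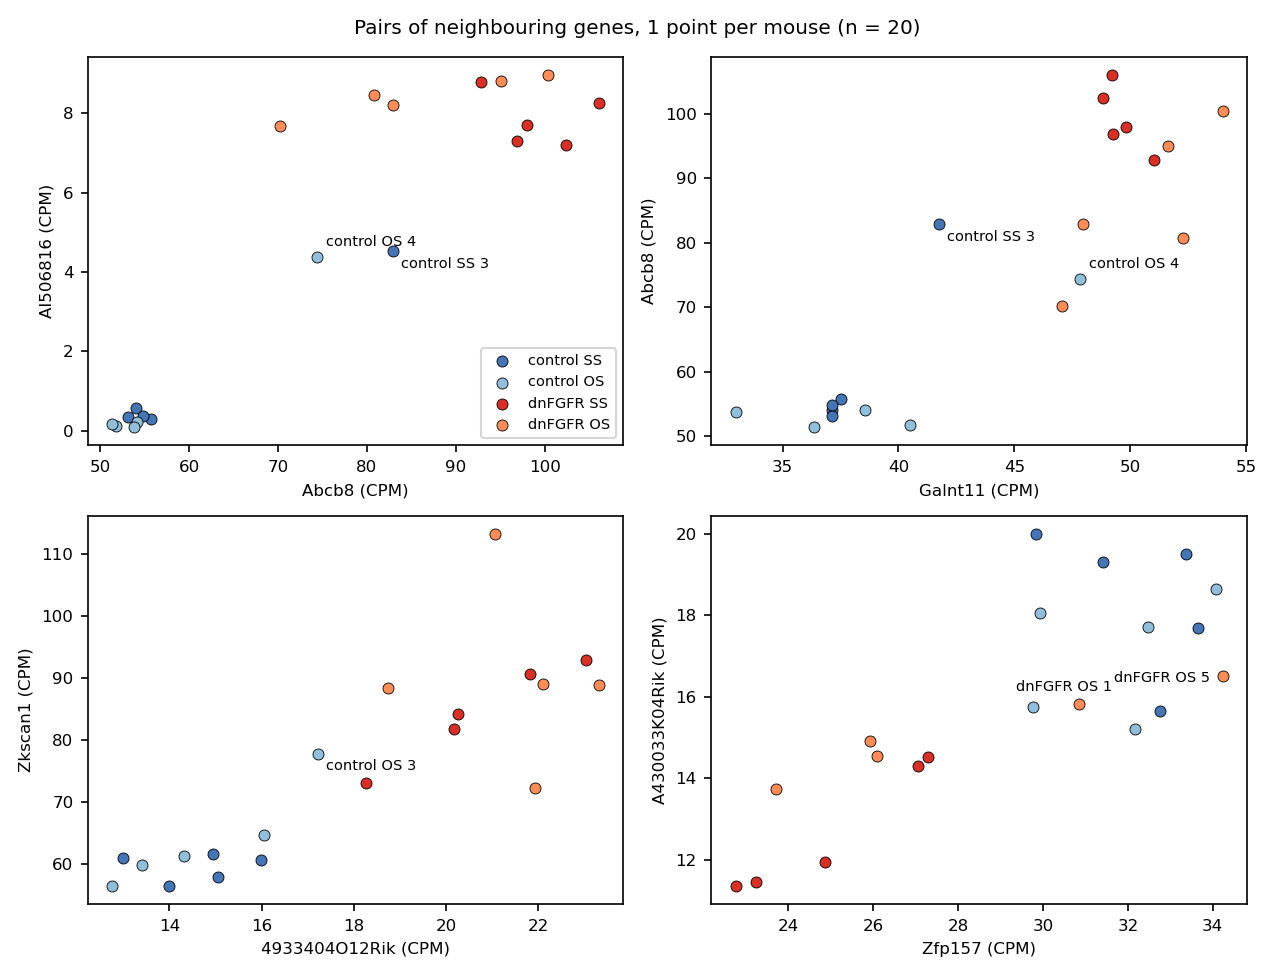
CPM of 4 pairs of neighbouring genes, with 1 point per mouse (n = 20) coloured by group and the mice described in the text labelled. In the first panel control SS mouse 3 and control OS mouse 4 lie at 4.53 and 4.39 CPM of AI506816, between the other controls and the dnFGFR mice, and in the last panel dnFGFR OS mice 1 and 5 lie at 30.8 and 34.2 CPM of Zfp157, within or above the controls.

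In the second block, Zkscan1 was the gene closest to 4933404O12Rik (0.478), followed by Rspo2 on chromosome 15 (0.511). Closest to Zkscan1 were 6820431F20Rik on chromosome 8 (0.401) and Samd8 on chromosome 14 (0.438), ahead of any gene of chromosome 5. Zfp157 and A430033K04Rik were in each other's lists (0.566), but Klhl7, in the window of the first block (0.541), and Ppfia1 on chromosome 7 (0.56) were closer to Zfp157. Neb (0.633) and Cntn3 (0.642), on other chromosomes, were the further genes listed for A430033K04Rik. Gabra2, a GABA receptor subunit at chr5:70958392-71095849, between the blocks, was listed for 4933404O12Rik (0.575) and Zkscan1 (0.454). It was the only gene of chromosome 5 outside the set that passed the threshold for genotype, in SS mice, with a log2 fold change of 0.61 (SE 0.114), beside 0.89 (SE 0.18) in OS mice. Control OS mouse 3 had its highest control level, at 186 CPM, the other 9 controls being at 94.5 to 147 CPM and dnFGFR mice at 167 to 281 CPM. This mouse ranked 1 of 10 controls for 4 of the 5 second-block members, which begin 65.6 Mb further on, and Gabra2 was picked for likeness to 2 of these members over the same mice. The genes listed for Asic3 (Gm10654, Hpgd and Ccnd1), Prkag2os1 (Neb, AU022252 and Tmem203) and Col26a1 (Gm9732, Plekhn1 and Fgl1) lie on other chromosomes.

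Genes of the windows that differed by genotype had been made members, so the values of the other genes are a description. Of the other genes of the table in a window of 2 Mb around the first block (24 to 26 Mb, 34 genes) and one of 3 Mb around the second (87 genes), 28 and 69 were tested in SS mice and 0 passed, and 27 and 68 were tested in OS mice and 0 passed. At an unadjusted p under 0.05 (edgeR), 8.63% of all tested genes passed in SS mice and 7.02% in OS mice. The share of the other window genes at that level was not counted, so 0 past the adjusted threshold does not show them unchanged. In SS mice Gjc3, for example, was at -0.35 (SE 0.0839) and Cnpy4 at 0.39 (SE 0.125), and in OS mice Nupl2 was at 0.42 (SE 0.122). DESeq2 called 2 of the other window genes in SS mice. The median absolute log2 fold change in SS mice was 0.08 among other genes of the first window and 0.09 among those of the second, beside 0.07 over all tested genes. In OS mice it was 0.13 and 0.17, beside 0.10 over all tested genes. The rule for the set ends the first window at 25 Mb; the edge of 26 Mb was chosen after seeing the data, because Galnt11 starts past 25 Mb. Ended at 25 Mb, the window had 0 of 22 and 0 of 21 other genes past the threshold.

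The genes next to the members on either side, 14 in all, had log2 fold changes from -0.35 to 0.21 in SS mice and from -0.32 to 0.23 in OS mice, and 0 passed. Around Abcb8, Atg9b, an autophagy gene, was at 0.21 (SE 0.0924) and 0.22 (SE 0.127). Between Zfp157 and A430033K04Rik lies Zfp68, another zinc finger gene, which was at 0.06 (SE 0.0656) and 0.03 (SE 0.0821). Kmt2c, a histone methyltransferase gene after Galnt11, was at -0.04 (SE 0.0642) and 0.11 (SE 0.13). Ift22, an intraflagellar transport gene between Col26a1 and 4933404O12Rik, was at 0.07 (SE 0.0556) and -0.09 (SE 0.0943).

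**Figure D4:**
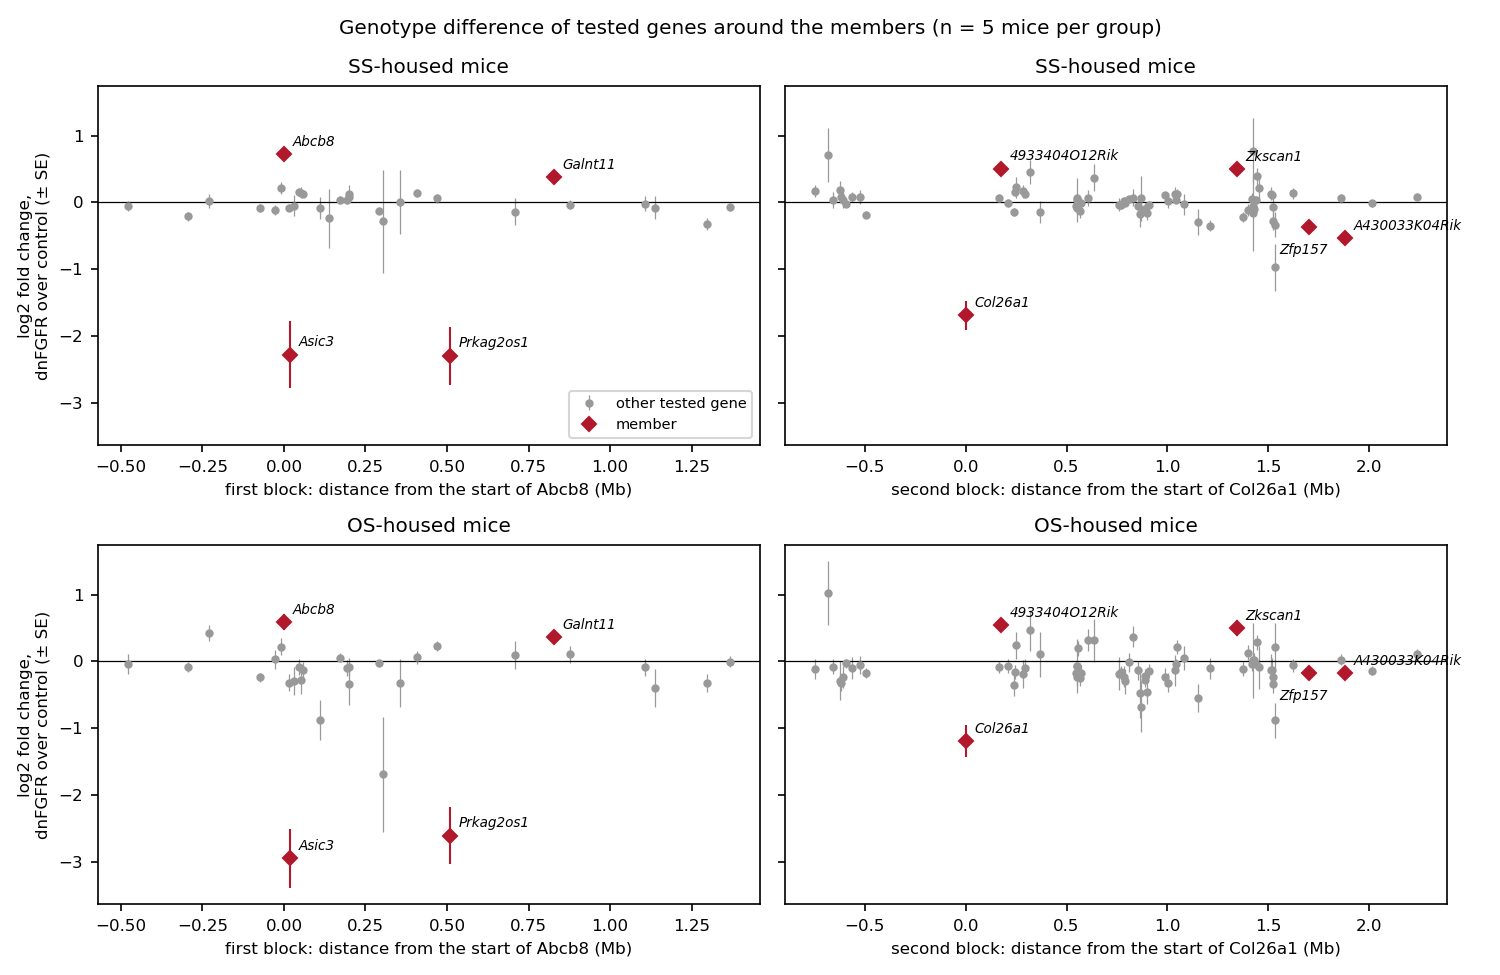
Log2 fold change of dnFGFR over control (vertical axes, ± SE, n = 5 mice per group) of the tested genes of each window against distance in Mb from the start of the block's first member, in SS (upper) and OS (lower) mice. Members (red) lie among other genes (grey), of which 0 passed the threshold; the lowest members are Asic3 and Prkag2os1, at -2.28 and -2.30 in SS mice.

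Housing was compared within each genotype, on the same mice that chose the members, so these tests are not independent of that choice. In control mice, 0 of 9 members passed for OS against SS housing (0.124% of 17004 genes passed, 0.112% higher and 0.0118% lower), and 0 of 9 had an unadjusted p under 0.05 (7.2% of genes). The largest difference was that of Asic3, with a log2 fold change of 0.58 (95% interval -0.20 to 1.36, adjusted p = 0.787, edgeR). Intervals of the better expressed members were narrower, such as -0.14 to 0.22 for Galnt11, -0.06 to 0.26 for Zkscan1 and -0.15 to 0.10 for Zfp157. The median log2 fold change of the members was 0.015, beside 0.002 over all tested genes.

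In dnFGFR mice 7 members were tested, Asic3 and Prkag2os1 having too few counts, and 0 passed (0% of 16944 genes passed, and 6.72% had an unadjusted p under 0.05). By edgeR, 2 of the 7 had an unadjusted p under 0.05. Abcb8 was lower in OS mice, with a log2 fold change of -0.21 (95% interval -0.40 to -0.01, adjusted p = 0.726, edgeR), which was -0.14 without dnFGFR OS mouse 5. A430033K04Rik was higher in OS mice, at 0.25 (95% interval 0.03 to 0.47, adjusted p = 0.726, edgeR) and 0.22 without that mouse. Mean levels of A430033K04Rik were 12.7 ± 1.57 CPM in dnFGFR SS and 15.1 ± 1.08 CPM in dnFGFR OS mice (SD, n = 5), and 18.4 ± 1.78 and 17.1 ± 1.51 CPM in control SS and OS mice. Zfp157 was at 0.17 (95% interval -0.06 to 0.40), and at 0.09 without dnFGFR OS mouse 5.

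Some sacrifice dates held both housings of a genotype. For controls these were the dates of 2 SS mice and 5 OS mice, and in the dnFGFR line of 2 and 4, respectively. Within these dates 0 members passed in either genotype. In dnFGFR mice Abcb8 was at -0.28, A430033K04Rik at 0.26 and Zfp157 at 0.25 on the log2 scale, the same directions as over all dates. In control mice the direction of Prkag2os1, Col26a1 and 4933404O12Rik was opposite within dates, and so was that of Col26a1 in dnFGFR mice.

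**Figure D5:**
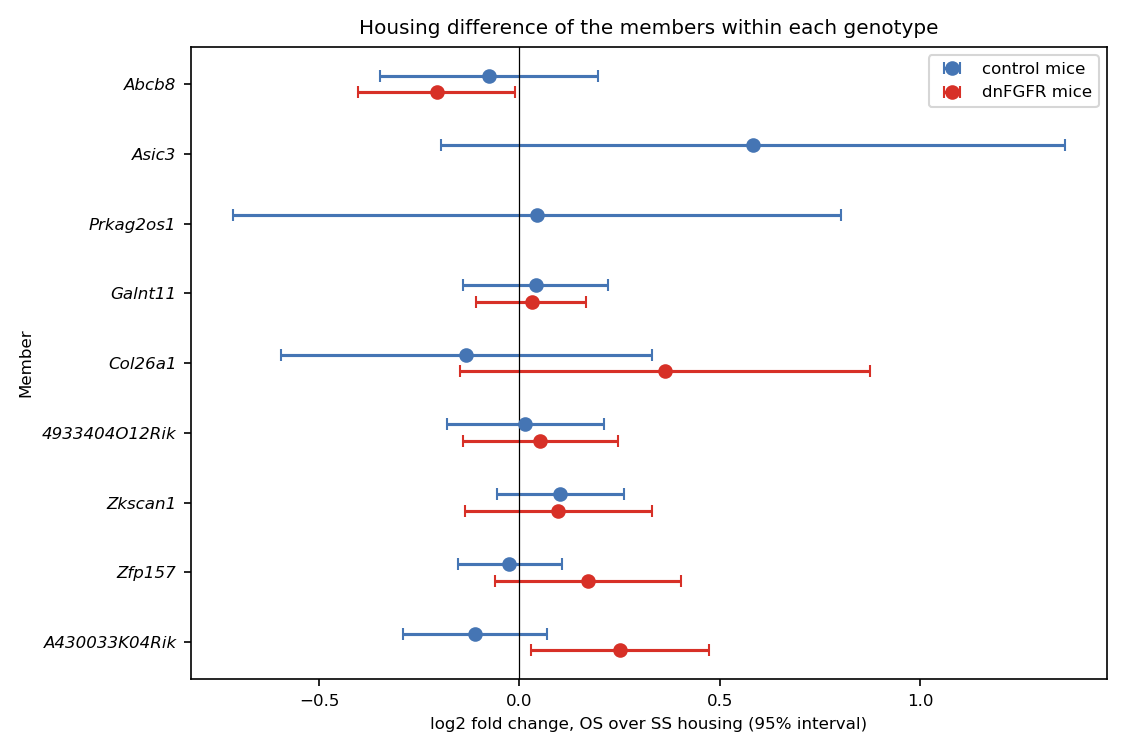
Log2 fold change of OS over SS housing (horizontal axis, with 95% interval) for each member in control (blue) and dnFGFR (red) mice, n = 5 mice per group. The intervals include 0 except those of Abcb8 (-0.40 to -0.01) and A430033K04Rik (0.03 to 0.47) in dnFGFR mice; Asic3 and Prkag2os1 were not tested in dnFGFR mice.

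The difference between the genotype effects in OS and SS mice was tested as the housing by genotype interaction, on the same mice that chose the members. Of the 9 members 0 passed (0% of 17445 genes passed, and 3.41% had an unadjusted p under 0.05). A430033K04Rik had the only unadjusted p under 0.05, with an interaction of 0.36 on the log2 scale (SE 0.131, 95% interval 0.09 to 0.63, adjusted p = 0.963, edgeR). Intervals were -0.23 to 0.21 for Galnt11, -0.23 to 0.30 for 4933404O12Rik and -0.29 to 0.28 for Zkscan1, and that of Asic3 was wider, from -2.17 to 0.81.

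Relatives of the members, outside the set, were counted from 6 lists. The list of AMPK subunits was taken for Prkag2, the gene that Prkag2os1 overlaps, and its genes are not relatives of that lncRNA. Of the genes in the 6 lists 46 were tested in each pairwise comparison and 48 in the interaction, and 0 passed in any. Other ABCB transporters (7 tested) had a median log2 fold change of -0.07 in SS and 0.00 in OS mice for genotype, and Abcb1b, a drug efflux pump, had the smallest p in SS mice (-0.36, SE 0.166). The other acid-sensing channels (3 tested) had medians of -0.03 and -0.09, led by Asic4. AMPK subunits (6 tested) had medians of 0.04 and 0.05, led in SS mice by Prkab1 (-0.16, SE 0.0871). In OS mice they were led by Prkag2 (0.23, SE 0.0768), which lies in the window of the first block. GalNAc transferases (16 tested) had medians of -0.04 and 0.04, and Galnt9 had the smallest p in both housings (0.38, SE 0.114, and 0.46, SE 0.118). EMI-domain genes (4 tested) had medians of -0.01 and 0.13, led by Emid1 (-0.45, SE 0.16, and -0.68, SE 0.211). Genes of the Zkscan series (10 tested) had medians of 0.06 and 0.12.

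The sacrifice dates of the 2 genotypes had no day in common, so date and genotype cannot be told apart for any genotype value above. Fgfr1 was at 87.9 to 91.7 CPM in the group means; counts per gene do not separate the transgene from the mouse gene, so this checks no label. Gnrh1, the marker of GnRH neurons, averaged 2.01 CPM in both control groups and 1.27 and 1.42 CPM in dnFGFR SS and OS mice. Its log2 fold change for genotype was -0.67 (SE 0.202, adjusted p = 0.308, edgeR) in SS mice. In OS mice it was -0.50 (SE 0.242, adjusted p = 0.713, edgeR). By qPCR of POA RNA, the study reported lower GnRH expression in dnFGFR than in control mice. All 9 POA markers had reads in each group. Of the markers of striatum, choroid plexus, oligodendrocytes, astrocytes and microglia, 0 passed in any comparison by edgeR. Summed choroid plexus markers varied widely within each group, in a range of 34.5 to 2140 CPM over mice. Their medians were 126 and 1400 CPM in control SS and OS mice and 48.9 and 225 CPM in dnFGFR SS and OS mice. Summed oligodendrocyte markers had medians of 5930 and 6000 CPM in control SS and OS mice and of 5200 and 5340 CPM in dnFGFR SS and OS mice. Summed striatum markers had medians of 2450 and 2370 CPM in control SS and OS mice and of 2280 and 1980 CPM in dnFGFR SS and OS mice. The part of these tissue and cell type markers in the members' values was not tested.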

How the data were processed

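Counts of RNA-seq reads (NEBNext Ultra libraries, 150-bp paired ends) were deposited by the authors as whole numbers per RefSeq gene without normalization, after HISAT2 alignment to GRCm38 and counting with Rsubread; strand and overlap settings are not given in the sources used here. A further 20 columns of the table were not used. In R 4.3.3, each comparison was fitted on its own groups with edgeR 4.0.16 (quasi-likelihood, TMM, filterByExpr, Benjamini-Hochberg adjusted p under 0.1). CPM used TMM factors, and log2 CPM a prior count of 2. Steps were tested on simulated data. Members, gene lists and tests were chosen with earlier results of these data known. Named genes were the members, adjacent and overlapping genes, the leading gene of each list, chromosome 5 genes past the threshold and the 3 most similar genes per member. Exon lengths and shared exon bases were from GENCODE M21. Replicates are separate mice, and all 20 were kept. The study removed outlier samples and used DESeq2. It reported genes changed by housing in dnFGFR mice and none in control mice. Alternatives were DESeq2 1.42.0, RLE factors, other filters and thresholds, all 4 groups in 1 fit, replicate block, sacrifice dates and leaving out each mouse.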

Additional observations from a re-analysis of the deposited data

Results flagged for a closer look

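Within groups of 5 mice, 4 of 36 combinations of member and group had a mouse set far apart from the other 4. The rule was a gap over Dixon's critical value, which flags about 1 in 20 groups of independent, normally distributed values. The share over all genes was not computed, so nothing is read from the number of flags. The flags were not independent, since control SS mouse 3 was flagged for both Abcb8 and Galnt11. For Abcb8, control SS mouse 3 was at 82.95 CPM and the other control SS mice at 53.19 to 55.74 CPM, and control OS mouse 4 was at 74.43 CPM and the other control OS mice at 51.38 to 54.15 CPM. For Galnt11, control SS mouse 3 was at 41.75 CPM and the others at 37.13 to 37.52 CPM. For Asic3, dnFGFR SS mouse 4 was at 0.3878 CPM, from 13 counts, and the others at 0.05276 to 0.1156 CPM.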

How the results depend on the processing

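Direction of the genotype difference was the same as in the report for the 9 members under the alternatives run in both housings. By setting, DESeq2 called 225 genes and 2 other window genes for genotype in SS mice, 78 genes and 7 members for genotype in OS mice, 157 genes for housing in control mice, 5 for housing in dnFGFR mice and 1 for the interaction. An adjusted p under 0.05 left 5 genes and 1 member for genotype in OS mice and 6 genes for housing in control mice. With all 4 groups in 1 fit there were 45 genes and 7 members for genotype in OS mice and 0 genes for housing in control mice. A minimum of 10 counts in every mouse gave 0 members for genotype in OS mice, since Asic3 and Prkag2os1 then drop out, and 32 genes for housing in control mice. Within sacrifice dates, 1 gene passed for housing in control mice, and the log2 fold change for housing was -0.29 for Prkag2os1, 0.27 for Col26a1 and -0.045 for 4933404O12Rik in control mice and -0.018 for Col26a1 in dnFGFR mice, each opposite in sign to the report. The interaction of Zkscan1 was 0.003 with DESeq2 and 0.003 with RLE factors. With the scale placed on linear CPM without TMM factors, instead of log2 CPM, 2 mice were across the midpoint for Asic3 and 2 for Prkag2os1. The change of scale and the loss of the factors were not separated. Unless stated otherwise the cause was not tested.

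With the replicate number as a block, 3 genes and 0 members passed for genotype in OS mice. Correlations of same-numbered mice ran from -0.24 to 0.26 over 20 pairs, and 3 of 20 mice correlated best with their own number, so the numbers were not taken as pairing the mice.

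Leaving out each mouse in turn gave 21 to 70 genes, 5 to 8 members and 0 to 1 other window genes for genotype in SS mice, 3 to 16 genes and 0 to 3 members for genotype in OS mice, and 0 to 32 genes for housing in control mice. The lowest count of members in SS mice came without control SS mouse 2, control SS mouse 3 or dnFGFR SS mouse 3. In OS mice 0 members passed without control OS mouse 1 or 5 or without dnFGFR OS mouse 1, 3 or 4, and 3 passed without control OS mouse 4, Abcb8 then being among them (adjusted p = 0.0296, edgeR). Housing in control mice gave 0 genes without control SS mouse 4. For housing in control mice the log2 fold change ran from -0.191 to 0.067 for Abcb8, -0.15 to 0.24 for Prkag2os1, -0.043 to 0.097 for Galnt11, -0.221 to 0.019 for Col26a1 and -0.047 to 0.061 for 4933404O12Rik. The interaction ran from -0.895 to 0.072 for Asic3, -0.55 to 0.08 for Prkag2os1, -0.062 to 0.084 for Galnt11 and -0.092 to 0.08 for Zkscan1. Counts of 1 to 13 in dnFGFR mice limit Asic3 and Prkag2os1 most.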
